A study of Mus musculus with 6 samples.

Results

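The genes described here are 54 genes of the cell cycle, chosen by name: 15 genes of DNA replication in S phase, 21 of G2 and M phase, 8 cyclins and kinases of G1, 2 E2F factors, 4 inhibitors of cyclin-dependent kinases (Cdks), 3 pocket proteins and Cdk5, a kinase of postmitotic neurons. Every probe set annotated to exactly 1 of these genes was taken, which gave 126 of 45037 probe sets and 53 of the 54 genes, because Ccnb1 has no probe set annotated to it alone. They were read in 6 pools of GFP+ tissue from the cervical spinal cord of mouse embryos. All 3 embryos were HB9::GFP transgenic littermates at E11.5, in which the Hb9 (Mnx1) promoter drives GFP in motoneurons. One left and one right pool per embryo were laser-captured on the same sections, with any cell lying among the GFP+ cells. No other treatment or genotype was compared, and the question was whether the sides differ.

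A motoneuron is born when a progenitor of the ventral neural tube leaves the cycle for good. In cycling cells, G1 cyclins and their kinases inactivate the pocket proteins, E2F factors then turn on the genes of DNA replication, and the genes of G2 and M phase follow, under the MuvB complex with B-Myb and FoxM1. Cdk inhibitors such as p27 (Cdkn1b) and p19 (Cdkn2d) hold the kinases down in cells that have left the cycle, and Cdk5 works with partners other than cyclins in neurons.

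Promoters of 4 genes are shown first: 3 belong to replication genes that the results below turn on, and Cdc20 stands for the mitotic genes. RefSeq windows of GRCm38.p6, from 250 bases before to 50 after the start of a transcript, were found for 44 of the 54 genes (49 windows). They were searched on both strands for 4 E2F words (TTTCCCGC, TTTCGCGC, TTTGCCGC and TTTGGCGC), for the word TTTGAA of the cell cycle homology region (CHR) and for CCAAT, the word of the factor NF-Y. The words of different kinds were counted separately, and a window counted once for each kind. Each line gives the 250 bases before the start, 5′ to 3′, with the words found in capitals.
Gins3: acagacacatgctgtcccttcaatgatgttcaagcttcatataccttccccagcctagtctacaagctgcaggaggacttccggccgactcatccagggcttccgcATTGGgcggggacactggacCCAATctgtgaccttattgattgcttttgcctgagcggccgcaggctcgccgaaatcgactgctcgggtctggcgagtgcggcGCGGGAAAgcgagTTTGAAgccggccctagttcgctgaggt
Mcm5: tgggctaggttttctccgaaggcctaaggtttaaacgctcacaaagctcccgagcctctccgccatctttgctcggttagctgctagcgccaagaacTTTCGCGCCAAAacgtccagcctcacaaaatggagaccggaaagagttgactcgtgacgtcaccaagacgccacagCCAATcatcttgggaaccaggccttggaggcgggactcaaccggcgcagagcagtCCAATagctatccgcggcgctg
Mcm7: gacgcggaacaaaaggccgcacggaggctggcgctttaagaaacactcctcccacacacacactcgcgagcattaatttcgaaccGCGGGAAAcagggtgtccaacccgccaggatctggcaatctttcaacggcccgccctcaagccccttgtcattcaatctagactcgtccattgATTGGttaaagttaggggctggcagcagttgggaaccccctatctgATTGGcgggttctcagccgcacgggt
Cdc20: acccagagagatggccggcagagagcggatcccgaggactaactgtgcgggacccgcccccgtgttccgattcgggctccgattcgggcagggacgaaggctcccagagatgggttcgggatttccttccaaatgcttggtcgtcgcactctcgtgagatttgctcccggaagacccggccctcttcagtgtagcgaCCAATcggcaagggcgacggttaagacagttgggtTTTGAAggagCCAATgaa
The Gins3 promoter, at chr8:95633309-95633558 (plus strand), holds 1 E2F word, 1 CHR word and 2 CCAAT words. The Mcm5 promoter, at chr8:75109259-75109508 (plus strand), holds 2 E2F words that overlap each other and 2 CCAAT words. In the Mcm7 window printed here, at chr5:138171884-138172133 (minus strand), 1 E2F word and 2 CCAAT words were found. A second Mcm7 window, at chr5:138171267-138171516 (minus strand), held 1 CCAAT word and 0 E2F words. The Cdc20 promoter, of a mitotic gene, at chr4:118437344-118437593 (minus strand), holds 1 CHR word between 2 CCAAT words and no E2F word. Not every gene named below had an E2F or CHR word in its promoter. Before the start, Rrm1 had 2 CCAAT words and 0 E2F words, and Cks2 had 2 CCAAT words and 0 CHR words.

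E2F words lay in 8 of 14 windows of S phase genes (57.1%) and in 1 of 18 windows of G2 and M phase genes (5.56%), against 2.26% of all 32851 windows. The CHR word showed the opposite split, with 2 of 14 S phase windows (14.3%) and 13 of 18 G2 and M phase windows (72.2%), against 17.9% of all windows. CHR and CCAAT words stood together in 12 of the 18 G2 and M phase windows (66.7%), against 6.95% of all. In Anln, both CHR words lay after the start, at 22 and 29 bases. Cdkn1a, Cdkn1b, Cdkn2c and Cdkn2d had 6 windows, with 0 E2F words, 0 CHR words and a CCAAT word in 3. These matches describe letters in a window and not occupied sites.

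Values are MAS5 signals on a linear scale, which the authors scaled to the same trimmed mean on each array. Within each embryo the right signal was divided by the left and taken to log2, written log2(R/L). Tests were run on probe sets with a signal of 200 or more in at least 1 pool, the limit of the methods, which 79 of the 126 probe sets met (48 genes). For 13 of them only right pools, and for 2 only left pools, reached it. A left pool reached it for 66 of the 79, against 20356 of all 21853 such probe sets. By the brightest of these probe sets of each gene, 9 of 48 members reached it on the right only and 0 on the left only. Over all 10539 genes with such a probe set, 562 did so on the right only and 390 on the left only. Array medians ranged from 99.6 to 118. The right pool of embryo 1 stood apart on 3 control readings, among them a signal of 1203 for the spiked BioB control, against 742 to 909 on the other arrays. The ratio of 3′ to 5′ signal of the actin control, a reading of RNA quality, was highest there (2.51) and lowest in the left pool of the same embryo (1.895), with 2.005 to 2.237 on the other arrays. Its part in the differences of embryo 1 was not tested, and results are given for each embryo.

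The first question was whether any of these genes differed between the sides in all embryos. The fold rule of the methods asks that the 3 embryos share a sign and that both their average and at least 2 of them pass 1.5-fold (0.58 in log2). It was met with the right side higher by 4 of 79 probe sets (5.06%), those of Anln, Cks2, Clspn and Gins3, against 2.4% of all 21853 tested probe sets, and with the left side higher by 0, against 1.55%. With limma, 0 of 79 passed an adjusted p of 0.05, as did 0.0% of all probe sets, and the lowest adjusted p was 0.9738. Without the signal limit the fold rule was met by 7 of 126 probe sets on the right (5.56%, against 6.23% of all) and 3 on the left (2.38%, against 3.77%). At an unadjusted limma p under 0.05 there were 3 with the right side higher (Anln, Rrm1 and Gins3, against 1.92% of all) and 1 with the left side higher (Mcm7, against 1.48%). All 3 right pools lay above all left pools for 3 probe sets, of Mcm3, Rrm1 and E2f3 (3.8%, against 2.98% of all), and below them for 2, both of Mcm7 (2.53%, against 2.45%). Flipping the signs of 3 embryo differences gives an exact two-sided p of 0.25 at best. Fewer cells of a type and less RNA per cell cannot be told apart in pooled tissue.

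Among S phase genes, Gins3 encodes a subunit of GINS, which joins the MCM ring in the working replication helicase. The brighter of its 2 probe sets read 94.8, 150.1 and 303 in the left pools of embryos 1, 2 and 3 and 280.1, 453 and 329.5 in the right pools. The right pool was the higher one in each embryo, whereas the sides overlapped across embryos because the left pool of embryo 3 lay above the right pool of embryo 1. Its mean log2(R/L) was 1.09 ± 0.84 (SD, n = 3 embryos). The limma p was 0.02059, with a 95% interval of 0.21 to 1.97. The dimmer probe set gave 1.23, 0.42 and 0.08, again higher on the right in each embryo, but with a smaller mean of 0.58. Clspn encodes Claspin, an adaptor of the replication checkpoint at the fork. Its signal was 222, 55.6 and 214 on the left, against 555, 133 and 221 on the right, so that embryos 1 and 2 differed in the same direction and embryo 3 hardly differed. The mean was 0.88 ± 0.72. A second, dimmer probe set of Clspn did not reach the limit and gave 3.28, -1.06 and -1.81, lower on the right in embryos 2 and 3.

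Rrm1 encodes the large subunit of ribonucleotide reductase, which supplies deoxynucleotides. One probe set read 906, 1086 and 1055.5 on the left, against 1676, 1284 and 1514 on the right. All right pools lay above all left pools, by 0.89, 0.24 and 0.52 in embryos 1, 2 and 3. The mean was 0.55 ± 0.32, with a limma p of 0.01897 (95% interval 0.12 to 0.98), and it did not reach 1.5-fold. The brighter Rrm1 probe set had the same direction in each embryo, at 1.06, 0.27 and 0.09. Rrm2, the small subunit of the same enzyme, did not follow it, and its 3 tested probe sets had means of -0.09 to 0.01, with signs that differed between embryos.

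The 6 subunits of the MCM helicase, which is loaded on origins in G1 as a ring with 1 copy of each, did not share a direction. Mcm5 read 297, 338.5 and 335.5 on the left, against 749.6, 799 and 250.3 on the right, so the right side was higher in embryos 1 and 2 and the left side in embryo 3 (1.34, 1.24 and -0.42). Its other tested probe set had the same signs (0.69, 0.95 and -0.08). Mcm7 ran the other way. The brightest of its 4 tested probe sets read 4861, 6586.5 and 4513.5 on the left, against 3913, 4330.4 and 4286 on the right, with all left pools above all right pools, a mean of -0.33 ± 0.27 and a limma p of 0.04882. A further Mcm7 probe set separated the sides in the same way (1110.5, 1331 and 1028 on the left, 818, 822 and 960.5 on the right). The other 2 were higher on the left in embryos 1 and 2 and slightly higher on the right in embryo 3. All 4 Mcm7 probe sets are of the kinds that can match more than 1 transcript (suffixes _s_at, _a_at and _x_at). Such suffixes also stand on the brightest probe sets of other members, Mcm2, Mcm3, Mcm4, Mcm5, Rrm2 and Cdk4 among them. The other tested Mcm5 probe set has none of these suffixes.

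Mcm2, Mcm3, Mcm4 and Mcm6 were mixed. The brighter Mcm2 probe set read 779, 804 and 901.5 on the left, against 1008, 925 and 628 on the right, which crossed over between embryos. The brighter Mcm3 probe set read 195.5, 241 and 223 on the left, against 266, 286 and 243 on the right, a small separation with a mean of 0.27 ± 0.16. Means over the 2 tested probe sets of each gene were -0.44 and -0.15 for Mcm4, and -0.01 and 0.09 for Mcm6. Mcm6 was higher on the right in embryo 1 and on the left in embryo 2 for both. The difference between Mcm5 and Mcm7 was not itself tested.

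**Figure D1:**
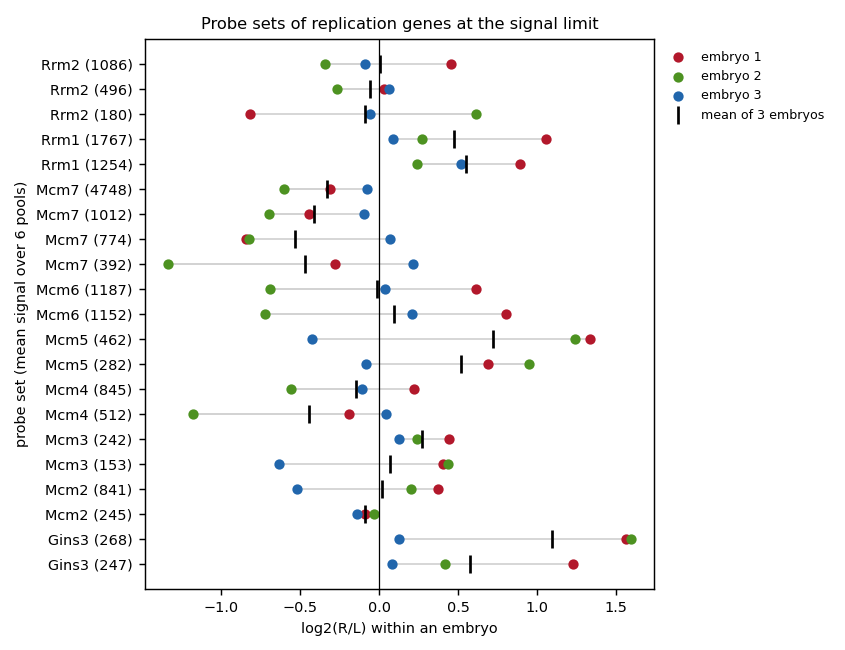
Log2(R/L) within each embryo (horizontal axis) for the tested probe sets of Gins3, the MCM subunits, Rrm1 and Rrm2, with the mean signal over the 6 pools in brackets. Points are embryos 1 (red), 2 (green) and 3 (blue) and black marks are means of the 3 embryos. The Gins3, Rrm1 and Mcm5 means lie right of 0 and all 4 Mcm7 means lie left of it.

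Pcna, the sliding clamp of the replication fork, was far above the limit in every pool, at 3169, 3199 and 2865 in left pools and 2869, 2378 and 3102 in right pools. It was lower on the right in embryos 1 and 2, and its mean was -0.15 ± 0.27. Licensing factors varied between embryos. Cdc6, which loads the MCM ring, read 87.9, 53.0 and 156 on the left, against 365, 10.03 and 193 on the right, with log2(R/L) of 2.05, -2.40 and 0.31. Cdt1, its partner, read 241, 349.6 and 187 (left pools) and 782, 196 and 252 (right pools). Both were higher on the right in embryo 1, lower in embryo 2 and higher in embryo 3, so neither had a direction. Geminin (Gmnn), which blocks Cdt1 after origins have fired, stayed under the limit in all pools, at 62.3, 2.54 and 192 (left pools) and 128, 75.4 and 177 (right pools). Tyms, which makes thymidylate, stayed under 100 on all 4 of its probe sets.

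Among G2 and M phase genes, Anln encodes anillin, a scaffold of the contractile ring in cytokinesis. It had the smallest limma p of all members (0.01326, rank 86 of the 21853 tested). Its signal was 66.2, 37.7 and 280.3 on the left, against 452.5, 138 and 346 on the right. The right pool was the higher one in each embryo, by 2.77, 1.87 and 0.30, but both pools of embryo 3 lay above the right pool of embryo 2. The mean was 1.65 ± 1.25, with a 95% interval of 0.44 to 2.86. A second, dimmer probe set of Anln did not reach the limit and gave 2.32, -3.93 and 0.06, with the opposite sign in embryo 2. Cks2 encodes a small protein that binds Cdk1 and helps it to recognise substrates. It read 139.5, 37.2 and 106 on the left, against 399.5, 89.4 and 147 on the right, and the right pool of embryo 1 was the only one to reach 200. Its mean was 1.08 ± 0.55. A dimmer probe set of Cks2 did not reach the limit and gave -0.39, 2.47 and 1.11, with the opposite sign in embryo 1.

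**Figure D2:**
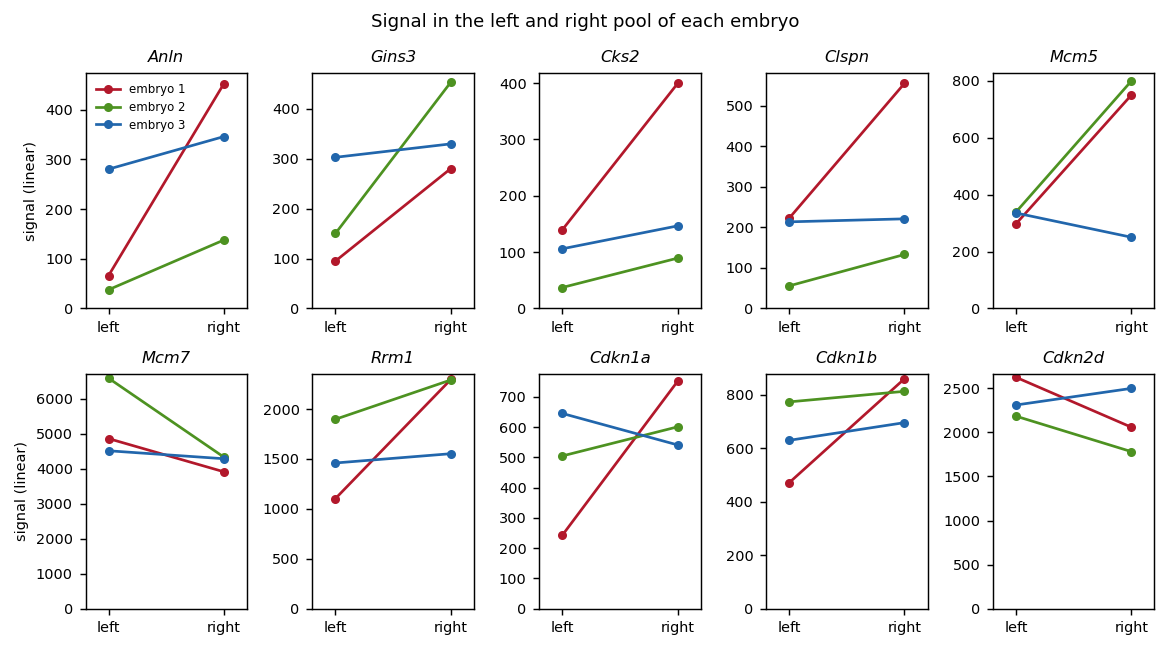
Signal (linear, vertical axis from 0) of the brightest probe set of 10 member genes in the left and right pool of each embryo, with a line joining the pools of embryos 1 (red), 2 (green) and 3 (blue). Anln, Gins3, Cks2 and Clspn climb from left to right in each embryo with a shallow slope in embryo 3, Mcm7 descends, and the lines of Cdkn1a, Cdkn2d and Mcm5 differ in direction between embryos.

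The genes most used to mark proliferating cells had no common direction between the sides. Mki67, which coats mitotic chromosomes, read 1712, 1998.5 and 2097 on the left, against 3480.2, 1401 and 2104 on the right. The right pool of embryo 1 was the highest and the right pool of embryo 2 the lowest of the 6, and the mean was 0.17 ± 0.78. Top2a, the topoisomerase that untangles sister DNA, read 427, 601 and 1057 on the left, against 939, 398 and 1104 on the right, with the same signs as Mki67 (1.14, -0.59 and 0.06). Cdk1, the kinase of mitotic entry, read 246, 212 and 273.5 (left pools) and 319, 172 and 259.6 (right pools), with a mean of -0.0006586 and a 95% interval of -0.73 to 0.73. Cdc20, which activates the anaphase-promoting complex, read 387, 665 and 625 on the left, against 933.5, 475 and 676.5 on the right on its brightest probe set. These 4 genes shared a pattern of right above left in embryo 1 and left above right in embryo 2.

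In embryo 1, 20 of 20 measured G2 and M phase genes read higher in the right pool than in the left, against 55.7% of all genes. That right pool was the highest of the 6 for 14 of the 20 genes, and another pool was the highest for Birc5, Ccna2, Cenpe, Cenpf, Plk1 and Top2a. The share of all genes for which it was the highest was not counted. Over all 18193 genes, its mean log2 signal relative to each probe set's own mean was 0.09, also the highest of the 6 pools. The spindle checkpoint kinase Bub1 read 248, 326 and 292.5 on the left, against 824, 299 and 368 on the right. Aurora A (Aurka), a kinase of the spindle poles, read 136, 187 and 190.2 (left pools) and 529, 141 and 175 (right pools). For both, the right pool of embryo 1 was over 2 times any other pool. The brightest probe set of Cks1b, a relative of Cks2, had the same pool at the top. It read 7251, 7863 and 7540.3 on the left, against 13690.0, 5257 and 6770.1 on the right. The other tested Cks1b probe set did not repeat this, at 426, 732 and 335 on the left, against 451, 350 and 357 on the right. Its mean log2(R/L) was -0.30, and its highest pool was the left pool of embryo 2. Aurkb and Bub1b reached 200 only in the right pool of embryo 1. The brightest probe sets of Plk1 and Cenpe reached 200 in the right pool of embryo 2 and read lowest in the left pool of that embryo. Plk1 read 146, 48.4 and 143 on the left, against 157, 241 and 117 on the right. The brightest probe set of Tpx2, which builds spindle microtubules, was even across the pools, at 361, 351 and 357.5 (left pools) and 385.5, 365 and 335 (right pools). Another tested Tpx2 probe set was higher on the right in each embryo, at 0.59, 0.56 and 0.23, and reached 200 in right pools only. A further tested one had a mean of -0.02. Birc5 (survivin) stayed under the limit, between 46.7 and 93.1.

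**Figure D3:**
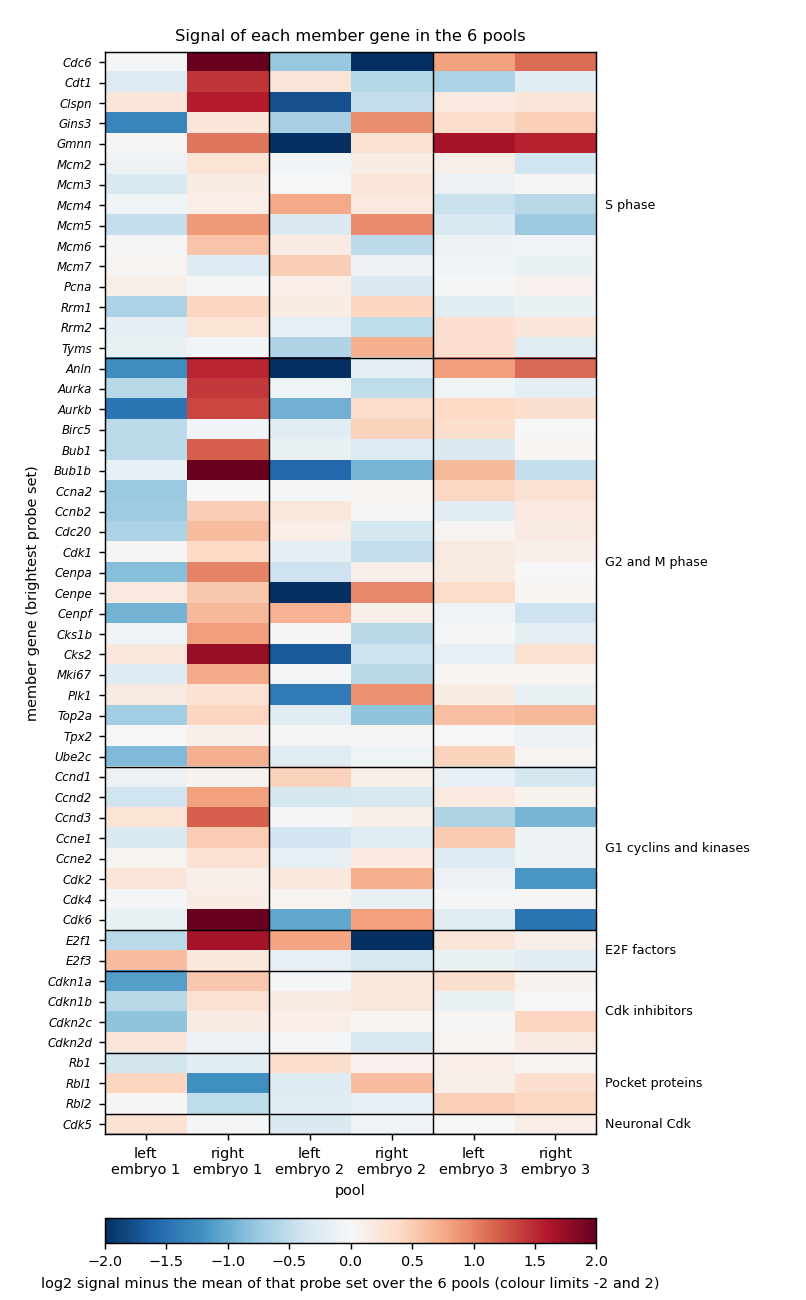
Signal of the brightest probe set of each of the 53 measured genes in the 6 pools, as log2 signal minus the mean of that probe set over the pools (red above, blue below, colours saturated at 2 and -2), grouped by role. The column of the right pool of embryo 1 is red through most of the G2 and M phase block, whereas most of the columns of embryo 3 are pale.

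Cyclins and kinases of G1 were mixed. Ccnd1, cyclin D1, read 624, 937 and 606 on the left, against 711, 726 and 533 on the right, with a mean of -0.12 ± 0.28. Cdk4, its kinase, had means between 0.01 and 0.05 on all 3 probe sets. The brightest read 6395, 6748 and 6313 (left pools) and 7205, 5844 and 6616.5 (right pools), with a mean of 0.01 ± 0.20 and a 95% interval of -0.28 to 0.30. Ccnd2, the cyclin with 6 tested probe sets, was higher on the right in embryo 1 on all 6 (0.66 to 1.21) and had means from -0.01 to 0.54. Cdk6 reached 200 only in the right pool of embryo 1, and read 61.5, 32.9 and 57.2 on the left, against 275, 118 and 24.6 on the right. Ccne2 was the 1 gene of the group whose brightest probe set kept the same sign in all embryos, at 0.23, 0.36 and 0.17.

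The probe sets of the 2 E2F genes were not alike. The brighter E2f1 probe set read 95.5, 240.3 and 164 on the left, against 439, 28.5 and 151 on the right, a spread wider between the right pools than between the sides. The other tested one was lower on the right in each embryo, at -0.49, -1.50 and -0.40, so that the 2 differed in sign in embryo 1 alone, and all 3 probe sets of the gene had means below 0 (-0.80 to -0.17). For E2f3, the dimmer tested probe set read 274, 306 and 219 on the left, against 408, 307 and 372 on the right, with all right pools above all left pools by a margin under 1 unit of signal at the closest pair. The brighter one was lower on the right in each embryo, at -0.41, -0.15 and -0.07. The 2 E2f3 probe sets thus gave contrary directions, and 0 of 4 tested E2F probe sets met the fold rule or had an unadjusted limma p under 0.05.

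The inhibitors of postmitotic cells were measured in the same pools. Their promoters lacked the E2F and CHR words, and the Cdkn1b promoter, at chr6:134920151-134920400 (plus strand), is given for comparison with those above, with its 2 CCAAT words in capitals.
Cdkn1b: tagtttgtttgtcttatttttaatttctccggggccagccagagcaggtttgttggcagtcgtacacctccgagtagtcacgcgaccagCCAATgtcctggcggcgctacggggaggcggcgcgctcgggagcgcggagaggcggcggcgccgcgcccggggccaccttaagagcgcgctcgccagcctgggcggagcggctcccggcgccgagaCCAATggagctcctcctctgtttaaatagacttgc
Cdkn1a (p21), which stops the cycle in newborn neurons and after DNA damage, read 243, 505 and 645 on the left, against 751.5, 601 and 541 on the right. The low value was the left pool of embryo 1, and the side with the higher signal changed in embryo 3. Its mean was 0.54 ± 0.98. Cdkn1b (p27) read 471, 774 and 629.9 on the left, against 860.3, 813 and 696 on the right, higher on the right in each embryo but by 0.87, 0.07 and 0.14, and its second probe set had a mean of -0.01. Cdkn2d (p19), an inhibitor of Cdk4 and Cdk6 that neurons keep, read 2625, 2184 and 2310.1 (left pools) and 2059, 1782 and 2499 (right pools). It read lower on the right in embryos 1 and 2, with a mean of -0.18 ± 0.25. Cdkn2c (p18) did not reach the limit, at 49.0, 93.6 and 86.1 (left pools) and 95.4, 87.9 and 115 (right pools). Of the 4 tested probe sets of inhibitors, 0 met the fold rule and 0 had an unadjusted limma p under 0.05.

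Pocket proteins bind E2F factors and hold their targets silent. Rb1 read 1739, 2863 and 2457 on the left, against 1912, 2372 and 2318 on the right, with a mean of -0.07 ± 0.20 and a 95% interval of -0.43 to 0.28. Rbl2 (p130), the pocket protein of resting cells, read 265, 220.0 and 361.5 (left pools) and 184, 234 and 347 (right pools), and the lowest was the right pool of embryo 1. Rbl1 (p107), the one of cycling cells, stayed under 200 on all 4 probe sets. Its brightest read 153, 95.3 and 124 on the left, against 48.6, 175 and 143 on the right, again lowest in the right pool of embryo 1. Cdk5 read 1127, 760.3 and 915.5 on the left, against 905, 868 and 1014 on the right, and its 95% interval was -0.44 to 0.46.

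Roles were then set side by side, as the mean of log2(R/L) over genes in each embryo, from the brightest probe set of each gene and with no signal limit. For G2 and M phase genes it was 1.31, 0.41 and -0.10 in embryos 1, 2 and 3 (0.54 ± 0.71, mean ± SD over embryos). For S phase genes it was 0.79, 0.34 and -0.04 (0.36 ± 0.42). The S phase value of embryo 2 rested on Gmnn, which lay under the limit, and without it, a choice made after the values were seen, the 3 values were 0.77, 0.02 and -0.04. Cdk inhibitors gave 0.78, -0.02 and 0.10 (0.29 ± 0.43), and G1 cyclins and kinases gave 0.70, 0.31 and -0.41 (0.20 ± 0.56). Pocket proteins gave -0.68, 0.23 and 0.02 (-0.14 ± 0.48). The mean over all 18193 genes was 0.17, 0.12 and -0.08. Each of these SDs over embryos was larger than the mean it belongs to. Inhibitors were about as high as S phase genes in embryo 1. In embryo 2 they were lower (-0.02 against 0.34), but not clearly so without Gmnn (-0.02 against 0.02). Over genes at the signal limit, inhibitors gave 0.01 in embryo 2 and S phase genes -0.08. No test of a role was made, because the genes were chosen with results of these data known. Over genes at the signal limit, S phase genes gave 0.82, -0.08 and 0.0049, so that embryos 2 and 3 changed order, whereas G2 and M phase genes gave 1.35, 0.39 and -0.08.

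**Figure D4:**
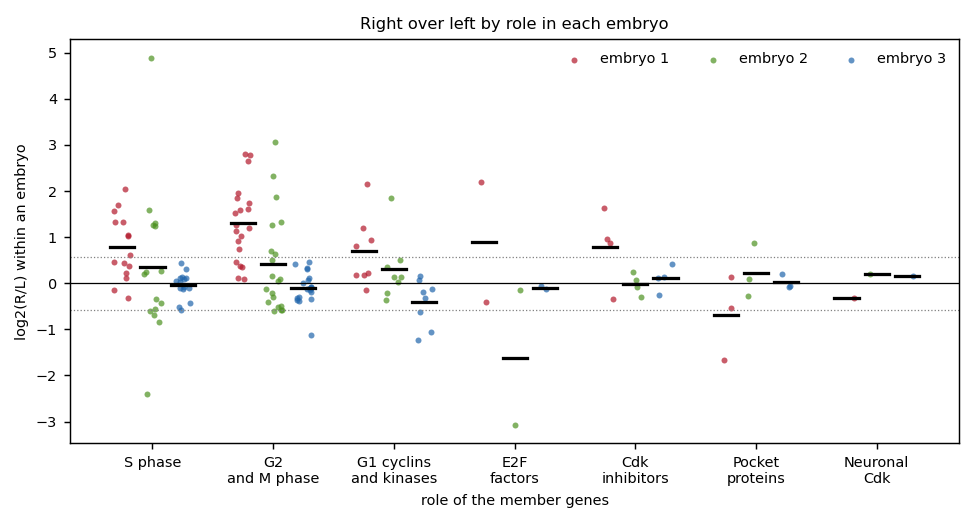
Log2(R/L) of the brightest probe set of each member gene (points) by role, in embryos 1 (red), 2 (green) and 3 (blue), with black bars for means over genes and dotted lines at 0.58 and -0.58. G2 and M phase genes of embryo 1 all lie above 0, with a mean of 1.31, and those of embryo 3 gather around 0.

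Counts in single embryos showed how far the pattern rests on embryo 1. There, 42 of 79 probe sets (53.2%) were past 1.5-fold with the right side higher, against 19.0% of all tested probe sets, and 3 (3.8%) with the left side higher, against 16.4%. By role, these were 19 of 26 for G2 and M phase (73.1%), 11 of 25 for S phase (44.0%), 9 of 16 for G1 cyclins and kinases (56.2%) and 2 of 4 for Cdk inhibitors, Cdkn1a and Cdkn1b. In embryo 2, 13 probe sets (16.5%) were past 1.5-fold on the right, against 16.7% of all, and 17 (21.5%) on the left, against 12.9%. In embryo 3, the counts were 1 on the right (1.27%, against 2.75%) and 6 on the left (7.59%, against 4.13%). The excess of embryo 1 was also there without a signal limit (61 of 126, 48.4%, against 28.9%), among probe sets with a left pool at 200 or more (33 of 66, against 15.9% of all such probe sets) and after scaling to equal medians (37 of 77, 48.1%, against 13.7%). Median scaling shifted the median log2(R/L) of all tested probe sets in embryo 1 from 0.03 to -0.14, and these shares are read against it. A single embryo has no replicate, and no test was made of it.

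The wider set of cell cycle genes was read from lists written by function. Other mitosis genes (30 genes, such as kinesins, kinetochore proteins and condensins) had means of 0.99, -0.30 and 0.04 in embryos 1, 2 and 3. Of these, 26 of 30 were higher on the right in embryo 1, against 55.7% of all genes. Kif23, a kinesin of the midbody, and Cdca3, a trigger of mitotic entry, met the fold rule with the right side higher, among 5.14% of all genes with no signal limit. Both lay under 200 in all pools, and Kif23 read 69.8, 16.0 and 7.18 in left pools and 145.5, 44.5 and 14.0 in right pools. Other replication genes (26 measured of 27) had means of 0.37, 0.15 and -0.26. Among them, Pole, the leading strand polymerase, was higher on the right and under the limit, whereas Pola1, of the polymerase that starts each strand, was higher on the left. Pola1 read 135, 293 and 121 on the left, against 51.0, 76.0 and 102 on the right, with a mean of -1.20 ± 0.87 (against 1.29% of genes at the limit that met the rule with the left side higher), and is the only tested gene of these lists to meet the rule. Other E2F, MuvB and checkpoint genes (22 of 23) and other inhibitors and exit genes (10) had 0 that met it in either direction, with means of 0.28, -0.23 and 0.09 and of 0.02, -0.37 and 0.14. In the promoters, 20 of 27 windows of other mitosis genes held the CHR word (74.1%, against 17.9% of all windows). An E2F word lay in 6 of 27 windows of other replication genes (22.2%, against 2.26% of all windows).

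Markers of cell types were read in the same pools. Motoneuron markers, Mnx1 and Isl1 included, were alike on both sides, with a summed signal of 10 genes between 26409 and 44477 on the left and between 26572 and 43819 on the right, and 0 of 10 met the fold rule. Pan-neuronal markers were even, with means of 0.13, 0.01 and -0.03. Ventral progenitor markers, of the cells that still divide, had means of 0.94, 0.51 and -0.01 over 16 genes. S phase genes, G2 and M phase genes, G1 cyclins and kinases, mesenchyme markers and the mean over all genes had the same order of embryos. The summed signal of the progenitor markers was 10353 to 18011 on the left and 12700 to 17573 on the right. Of these 16 markers, 3 met the fold rule with the right side higher (Nkx6-1, Pax6 and Notch1), against 5.14% of all genes. Nkx6-1 lay under the limit in all pools. Pax6, a transcription factor of progenitors, read 77.4, 217 and 106 on the left, against 173.5, 418 and 184 on the right, higher on the right in each embryo. Olig2, which defines motoneuron progenitors, stayed under the limit in all pools, at 1.48, 56.8 and 62.0 (left pools) and 35.3, 76.4 and 44.2 (right pools).

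Tissue outside the cord also moved with the right pool of embryo 1. The summed signal of 14 mesenchyme markers was 1557 to 3108 in the left pools, 20424 in the right pool of embryo 1 and 2980 and 3386 in the other right pools. That of 10 skeletal muscle markers was 405 to 445 on the left, 6565 in the right pool of embryo 1 and 357 and 377 in the others. All 14 mesenchyme and all 10 muscle markers were past 1.5-fold with the right side higher in embryo 1, against 26.4% of all genes. Of the mesenchyme markers, 5 of 14 met the fold rule with the right side higher (Meox1, Meox2, Twist1, Col1a2 and Fbln1), as did 1 of 10 muscle markers (Myog), against 5.14% of all genes. Meox1 and Twist1 lay under the limit in all pools. Meox2 and Myog reached it in the right pool of embryo 1 alone, and read at most 32.7 and 56.9 in the other pools. Of 6 measured erythroid markers (of 8), 4 were past it there, with a summed signal of 20410.0 in the left pool and 36621 in the right pool of that embryo. Endothelial markers (8 genes) had means of -0.26, 0.20 and -0.38, and 4 measured markers of neural crest, glia and sensory ganglion (of 8) had means of 0.57, 0.55 and -0.16. MAS5 gave no marker a signal of 0. The part of these cells in the cell cycle signals of the right pool of embryo 1 was not tested. In embryo 2, mesenchyme markers were also higher on the right (mean 1.30), but muscle markers were not (-0.58).

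**Figure D5:**
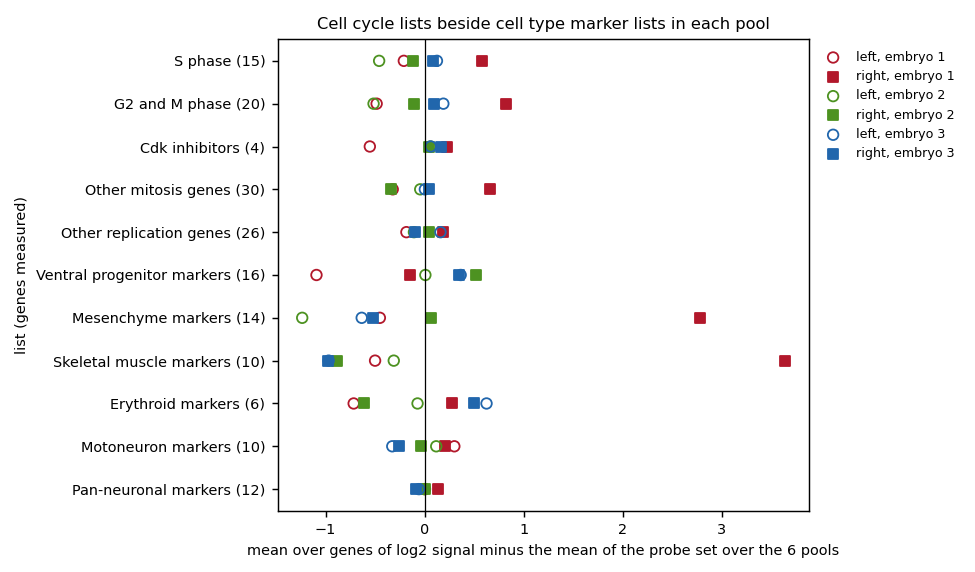
Mean over the genes of each list of log2 signal minus the mean of the probe set over the 6 pools (horizontal axis), with the number of genes measured in brackets. Open circles are left pools and filled squares right pools of embryos 1 (red), 2 (green) and 3 (blue). The right pool of embryo 1 is the highest for S phase (0.58) and G2 and M phase (0.82). It lies far above the others for mesenchyme (2.78) and skeletal muscle (3.64). Motoneuron markers range from -0.33 to 0.30, highest in embryo 1 and lowest in embryo 3 on both sides, and pan-neuronal markers from -0.09 to 0.14.

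Pool by pool, the level of the 20 G2 and M phase genes relative to their own mean over the arrays was -0.48, -0.52 and 0.19 in the left pools and 0.82, -0.11 and 0.09 in the right pools of embryos 1, 2 and 3. S phase genes gave -0.21, -0.46 and 0.12 in left pools and 0.58, -0.12 and 0.08 in right pools. The left pools of embryos 1 and 2 were thus the lowest for G2 and M phase genes. For S phase genes the low value of the left pool of embryo 2 depended on genes under the limit, and over genes at the limit it was -0.13, with -0.21 in the right pool of that embryo. Progenitor markers had a different order of pools (left pools -1.09, 0.01 and 0.36, right pools -0.15, 0.52 and 0.35). The right pool of embryo 1, the highest for both cell cycle groups, was below the mean for progenitor markers. Some of these markers read far under the limit in the left pool of embryo 1, such as Sox2 at 26.3. By log2(R/L) with no signal limit, the embryos had the same order for progenitor markers (0.94, 0.51 and -0.01) as for both cell cycle groups. The part of progenitors in the cell cycle signals was not tested.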

How the data were processed

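Biotin-labelled targets were amplified from RNA of the left and right GFP+ cervical regions of 3 littermate embryos, and each was read on its own Affymetrix Mouse 430 2.0 array (6 in all). The authors made the deposited signal intensity values in Affymetrix Expression Console by its MAS5 algorithm (version not given in the sources used here). They are linear and scaled to a common trimmed mean, which compares arrays but assumes alike totals. The table was used without detection calls, so the authors' present filter was not applied. Of 45101 probe sets, 64 controls were left out, 34945 are annotated to 1 gene, 932 to several and 9160 to none.

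Signals were taken to log2 with no constant, and only probe sets with 200 or more on at least 1 array entered the tests. Side and embryo were the terms of a limma 3.58.1 fit in R 4.3.3, with a trend in the variances and Benjamini-Hochberg adjustment over all 21853 tested probe sets (threshold 0.05). Pools of an embryo share the animal and its sections, and their deviations from the side means correlated at 0.241, 0.215 and 0.495. The fold rule followed the methods. The fit was also run on simulated data, whose outcome is not given here, and no conclusion is drawn from that run. For roles and lists, 1 probe set stands for each gene, the one with the highest mean signal. Promoter windows and names came from RefSeq tables and the platform annotation (Python 3.11.15). Precision is limited by how few arrays there are.

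The members, roles and lists were chosen with earlier results of these data known. Full values are given for members that met the fold rule, the 6 genes with the smallest limma p and 15 measured genes set by name. Up to 3 genes of each other list that met the fold rule qualified. Further genes, such as Mcm5, Bub1 and Cdk6, were chosen after their values were seen. Alternatives varied the scaling (by quantiles or by medians), the constant added to signals (50), the signal limit (none, 500 on the highest or 200 on the mean signal), the fold limit (2-fold, or 1.5-fold in all 3 embryos) and the fit (without the embryo term, or without the variance trend). Each embryo was also left out in turn, and all probe sets of a gene were averaged.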

Additional observations from a re-analysis of the deposited data

How the results depend on the processing

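With 3 embryos and 6 arrays, counts of genes by fold moved with the settings, whereas limma called 0 of the cell cycle probe sets under every alternative run (lowest adjusted p 0.3867, without embryo 2). Without the replicate block for embryo the count of limma calls was also 0, and 2 probe sets rather than 4 had an unadjusted limma p under 0.05. The count by the fold rule with the right side higher was 7 with no signal limit (adding dim probe sets of Cenpa and Cdk2), 1 with a limit of 500 and 0 with 1.5-fold asked for in all 3 embryos. Leaving out 1 embryo gave 0 to 10 (0 without embryo 1, 0 without embryo 2 and 10 without embryo 3, with Mcm5, Bub1b, Aurkb, Cdk6 and Ccnd2 added). The count with the left side higher was 1 after quantile normalization and 1 after median scaling (a probe set of E2f1), 3 with no limit (dim probe sets of Mcm6, Rrm1 and Ccnd3), and 0 to 1 with an embryo left out (Mcm7 without embryo 3). The other counts by the fold rule stayed within 1.5 times of the main count.

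Mean log2(R/L) ranged over the alternatives from 0.16 to 0.86 for G2 and M phase genes, 0.10 to 0.57 for S phase genes, 0.04 to 0.44 for Cdk inhibitors, -0.05 to 0.50 for G1 cyclins and kinases and -0.33 to 0.13 for pocket proteins. The values for G1 and pocket genes crossed 0 without embryo 1. Of 223 alternative values of the 21 named members, 20 had the opposite sign to the main value, in 10 members, none of which had passed a test. The cause of these changes was not tested. Signal limits, and fits without the embryo term or the variance trend, leave the ratio of a probe set as it was. Those values could not change sign, so 20 of 223 does not measure how stable the signs were. Probe sets far under the limit, such as those of Tyms and Gmnn, have ratios that a few units of signal decide.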
